A study of Mus musculus with 12 samples.

Results

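The matrix metalloproteinases (Mmp), the ADAM and ADAMTS proteases and the tissue inhibitors of metalloproteinases (Timp) were followed in mouse fibroblasts in which Myc, YAP or both were switched on. Members were all lines of the RNA-seq table whose gene symbol starts with Mmp, Adam, Adamts or Timp followed by a digit, which gave 79 of 21671 genes: 33 Adam, 23 Mmp, 19 Adamts and 4 Timp genes. The symbol alone chose them, and no measured value entered the rule.

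The cells were 3T9MycER;YAP fibroblasts, immortalized mouse embryonic fibroblasts that constitutively carry MycER, a Myc fusion protein that is switched on by 4-hydroxytamoxifen (OHT), and a doxycycline (dox)-inducible vector for YAP S127A, a YAP mutant that escapes the inhibitory phosphorylation by the Hippo kinases. They were serum-starved and highly confluent, and were a pool selected for the vector with hygromycin. There were 4 groups of 3 libraries: OHT (400 nM), dox (2 µg/ml), OHT+dox (both agents at these doses) and mock, which received neither. All groups carry both constructs and no group of cells without the vector received dox, so an effect of dox itself and one of YAP S127A cannot be told apart, and the same holds for OHT and MycER.

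These enzymes share a zinc-dependent catalytic domain and together remodel the surroundings of the cell. Mmp proteins degrade collagens and other matrix proteins, Adam proteins are membrane-bound and mostly release (shed) growth factors, receptors and adhesion molecules from the cell surface, and Adamts proteins are secreted enzymes that cut proteoglycans, trim procollagens and shape microfibrils. Timp proteins inhibit them. Fibroblasts are a main source of many of these enzymes. Transcription of several Mmp genes, collagenases and stromelysins among them, is classically driven through a short AP-1 site just ahead of the start of the gene.

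The letters of that site were found in promoters of the Mmp cluster of chromosome 9, to which Mmp13, Mmp3 and Mmp12 belong, and these promoters are shown because the cluster holds one of the genes that fell after dox. The RefSeq promoter table (GRCm38.p6, another build than the mm9 alignment behind the counts) matched 49 of the 79 members in 54 windows, of which the 250 bases before the start were searched. Capitals mark matches to the AP-1 motif TGANTCA, to the E-box CACGTG bound by Myc and its partner Max, or to the motif GGAATG of the TEAD factors that bring YAP to DNA (GGAATG was searched on both strands, the others read the same on both, and none contains another). The windows are those of Mmp13 (chr9:7272264-7272513), Mmp3 (chr9:7445572-7445821), Mmp12 (chr9:7347124-7347373) and Adam19 (chr11:46054252-46054501), all on the plus strand. The Adam19 window is shown as the promoter of the member with the largest fall after OHT, and it is the only one of the windows of Adam19 with CACGTG. Matches to the other motifs also stood before Adam19, in windows that are not shown. The AP-1 match lay 131 bases and the TEAD match 32 bases before the start of its window's gene model. The Mmp12 window is the one of its alternative starts that holds TGANTCA.
Mmp13: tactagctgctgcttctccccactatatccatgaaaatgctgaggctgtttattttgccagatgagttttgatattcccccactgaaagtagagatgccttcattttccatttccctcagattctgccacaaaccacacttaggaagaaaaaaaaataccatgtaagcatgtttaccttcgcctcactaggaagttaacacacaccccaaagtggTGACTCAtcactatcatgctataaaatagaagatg
Mmp3: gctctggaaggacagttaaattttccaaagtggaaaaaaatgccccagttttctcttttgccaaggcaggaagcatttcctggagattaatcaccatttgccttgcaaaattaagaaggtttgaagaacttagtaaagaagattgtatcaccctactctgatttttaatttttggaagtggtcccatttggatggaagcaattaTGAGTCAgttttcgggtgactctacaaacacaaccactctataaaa
Mmp12: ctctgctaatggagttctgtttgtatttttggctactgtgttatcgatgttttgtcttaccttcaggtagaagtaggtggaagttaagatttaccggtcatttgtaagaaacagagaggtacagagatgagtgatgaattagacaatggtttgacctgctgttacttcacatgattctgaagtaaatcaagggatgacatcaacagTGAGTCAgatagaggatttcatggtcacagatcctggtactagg
Adam19: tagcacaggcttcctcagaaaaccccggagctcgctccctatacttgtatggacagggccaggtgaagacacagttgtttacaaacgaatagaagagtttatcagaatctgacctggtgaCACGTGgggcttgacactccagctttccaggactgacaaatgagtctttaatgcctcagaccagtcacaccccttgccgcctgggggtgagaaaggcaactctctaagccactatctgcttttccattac
TGANTCA stood in 12 of the 54 windows of members, against 6.75% of all 32851 windows in the table. Of the 10 Mmp genes on chromosome 9 in the table, 8 had it, 35 bases before the start in Mmp13, 46 in Mmp3 and 44 in Mmp12. The other carriers were Adam19, and Adam20, Adam25 and Adam29 of chromosome 8. Of the carriers, Mmp1a, Mmp1b, Mmp7, Mmp10, Mmp20, Adam20, Adam25 and Adam29 had at most 2 reads each over the 12 libraries. Adamts15, Adamts16 and Adam11 had no entry among the promoters and were not searched. CACGTG stood in 5 of the 54 windows, against 6.02% of all windows, and lay 130 bases before the start shown for Adam19. GGAATG stood in 3 of the 54 windows, against 12.6% of all. These are matches of letters, and binding was not measured here.

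The deposited table holds no value for a single library, but its means over 6 libraries (those of a treated group and of mock) are written with enough digits that whole reads per library could be read back for genes with a mean under 120. This gave reads for 55 members. Of these, 23 had a mean of at least 5 normalized reads in their comparisons and were tested, 22 had a few reads, and 10 had 0 reads in all 12 libraries, which allows up to 3 reads over the 12 together. The other 24 members were too abundant for this and are described by the authors' means only. Size factors of the libraries ranged from 0.831 to 1.16, and the deposited means summed to 8184510 to 8299686 normalized reads. Deposited means of the 5 fibroblast markers (Col1a1, Col1a2, Col3a1, Vim and Pdgfrb) lay between 2587 and 6155. Summed markers of macrophages lay between 41.4 and 55.3 normalized reads in OHT libraries, 37.2 and 50.9 in dox, 43.6 and 52.9 in OHT+dox, and 34.4 and 53.4 in mock, with 487 reads over the 12 libraries for Cd68, 66 for Csf1r, 5 for Ptprc and 1 for Emr1. Markers of epithelium and endothelium summed to at most 8.99 normalized reads in any library. The authors' mean of mouse Yap1 was 2018 with dox libraries and 1988 with OHT libraries on 1 scale, so the table does not show the vector's YAP, and MycER is switched on as a protein, so the labels could not be checked through the targeted genes.

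With MycER and YAP S127A switched on together, 6 of the 23 tested members fell and none rose. These were Adamts15, Adam19, Mmp13, Adamts16, Adam22 and Mmp23, with log2 fold changes between −2.01 and −0.75. Over all 3380 genes tested in this comparison 16.3% fell and 10.1% rose (limma with Benjamini-Hochberg adjustment over all of them). After OHT alone 3 members fell (Adam19, Adamts16 and Adamts15) and 1 rose (Adam11), against 4.64% and 6.62% of all 3428 genes. After dox alone 2 fell (Mmp13 and Adamts15) and none rose, against 4.79% and 1.92% of all 3385 genes. The genes named here and below in full from the test were chosen after their values were seen. In these bulk libraries fewer cells that express a gene and less of its RNA per cell cannot be told apart.

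The median log2 fold change of the tested members was −0.27 in OHT, −0.35 in dox and −0.35 in OHT+dox against mock, beside −0.03, −0.12 and −0.13 for all tested genes. Values of the dox and OHT+dox comparisons are therefore best read against a median below 0. Scaling the libraries on the tested genes themselves (TMM) moved the median of all genes up by 0.115 for dox and 0.111 for OHT+dox. It turned the calls over all genes after dox from 65 higher and 162 lower to 118 higher and 72 lower, and those after OHT+dox from 342 higher and 551 lower to 446 higher and 411 lower. Of the 23 tested members 15 lay below 0 after OHT, 22 after dox and 19 after OHT+dox, beside 53.0%, 62.5% and 59.5% of all tested genes, and under that scaling 15, 20 and 19 did. The median of the members after OHT rested on single libraries, with −0.04 without OHT library 1 (12 of 23 below 0), −0.45 without OHT library 2 and −0.11 without mock library 2, and the median after dox was −0.23 without mock library 2. Here libraries are numbered from the deepest in each group, while the values of a group are listed below from low to high, so that their order is not that of the numbers.

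**Figure D1:**
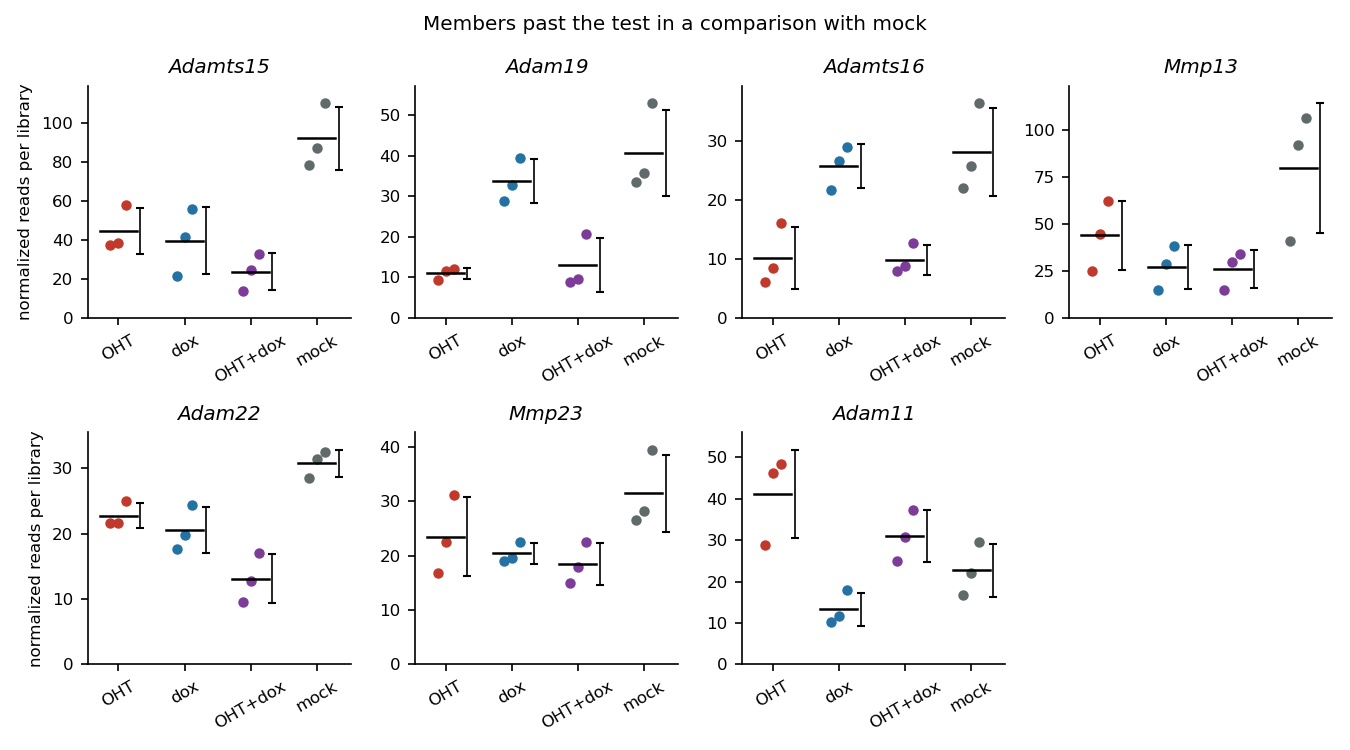
Normalized reads of the 7 members that passed the test in a comparison with mock, one panel a gene, for the 3 libraries of the OHT, dox, OHT+dox and mock groups (points), with the group mean (line) and SD (bar). Mock libraries stand above all OHT+dox libraries in Adamts15, Adam19, Adamts16, Mmp13, Adam22 and Mmp23, and Adam11 is highest after OHT.

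Adamts15 encodes a secreted protease that cuts large proteoglycans such as versican, and it was lower in all 3 treated groups. It had 37.1, 38.5 and 57.9 normalized reads in OHT libraries, 21.7, 41.3 and 55.8 in dox libraries, 13.8, 24.5 and 32.9 in OHT+dox libraries and 78.6, 87.2 and 110.0 in mock libraries. No treated library reached the lowest mock library. The log2 fold change against mock was −1.05 after OHT (SE 0.197, limma adjusted p = 0.00168), −1.32 after dox (SE 0.231, adjusted p = 0.00172) and −2.01 after OHT+dox (SE 0.255, adjusted p = 2.63e-05). OHT+dox libraries also lay below all OHT libraries (−0.96 on the log2 scale, 95% interval −1.56 to −0.37), which did not pass over all genes (adjusted p = 0.136). Against dox the value was −0.70 (95% interval −1.37 to −0.02, adjusted p = 0.182), and these groups overlapped. Both calls appeared when 1 library was left out: against OHT without OHT library 1 (−1.10, adjusted p = 0.0328) and against dox without dox library 1 (−1.10, adjusted p = 0.0309). Against OHT it also passed with genes of low counts kept (−0.97, adjusted p = 0.0351). Keeping those genes made the limma adjusted p far smaller at nearly the same log2 value (after OHT+dox 2.25e-16 in place of 2.63e-05). Calls gained only under that setting therefore carry little weight here and below.

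Adam19 (meltrin beta), a membrane protease that sheds neuregulins and takes part in heart development, fell with OHT whether or not dox was present. It had 9.50, 11.6 and 12 normalized reads in OHT libraries, 29.0, 32.8 and 39.6 in dox libraries, 8.99, 9.57 and 20.6 in OHT+dox libraries and 33.5, 35.8 and 53.0 in mock libraries. All 6 libraries with OHT lay below all 6 without it. The log2 fold change was −1.83 for OHT against mock (SE 0.3003, adjusted p = 0.000538) and −1.67 for OHT+dox against mock (SE 0.318, adjusted p = 0.000949). For OHT+dox against dox it was −1.42 (SE 0.303, adjusted p = 0.00291). Dox alone gave −0.24 (95% interval −0.69 to 0.20, adjusted p = 0.558), with overlapping groups. OHT+dox differed from OHT by 0.16 (95% interval −0.61 to 0.94, adjusted p = 0.904).

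Adamts16, a secreted protease linked to blood pressure in rats, fell in the same comparisons. Its normalized reads were 6.04, 8.42 and 16 in OHT libraries, 21.7, 26.5 and 29.0 in dox libraries, 7.99, 8.84 and 12.8 in OHT+dox libraries and 22.0, 25.7 and 36.3 in mock libraries. Again no library with OHT reached a library without it. The log2 fold change was −1.50 for OHT against mock (SE 0.354, adjusted p = 0.00982), −1.47 for OHT+dox against mock (SE 0.317, adjusted p = 0.00257) and −1.36 for OHT+dox against dox (SE 0.307, adjusted p = 0.00468). Dox against mock gave −0.11 (95% interval −0.61 to 0.39, adjusted p = 0.835). Without OHT library 1 the fall after OHT no longer passed (−1.15, adjusted p = 0.0706).

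Mmp13 encodes collagenase-3, the main collagenase of rodent connective tissue, and fell after dox and after OHT+dox. It had 25.0, 44.5 and 62.3 normalized reads in OHT libraries, 15.1, 28.6 and 38.3 in dox libraries, 14.7, 30 and 34.0 in OHT+dox libraries and 40.9, 92.3 and 107 in mock libraries. The lowest mock library, mock library 3, stood far below the other mock libraries, and still above every dox and OHT+dox library. It was also the lowest mock library in Adamts15, Adam19, Adamts16, Mmp3, Mmp9 and Mmp12, though not in Adam22 or Mmp23. OHT library 1 was the lowest OHT library in Mmp13, Adamts15, Adam19, Adamts16, Mmp9 and Mmp12, though not in Mmp3 or Mmp23. The members named first in each list thus shared part of their spread between libraries. Other tested members, Adam8 among them, had another lowest mock library, and the share over all genes was not counted. The log2 fold change of Mmp13 against mock was −1.57 after dox (SE 0.340, adjusted p = 0.00941) and −1.60 after OHT+dox (SE 0.353, adjusted p = 0.00301). After OHT it was −0.88 (SE 0.322, adjusted p = 0.0868), and the groups overlapped. Without mock library 3 the OHT value passed (−1.27, adjusted p = 0.00791), as it did without OHT library 2 (−1.22, adjusted p = 0.0274) and with genes of low counts kept (−0.89, adjusted p = 0.000508). The last of these carries little weight, as for Adamts15. The fall after dox did not pass without dox library 1 (−1.17, adjusted p = 0.111) or without dox library 3 (−1.66, adjusted p = 0.0551). OHT+dox against OHT gave −0.72 (adjusted p = 0.408) and passed without OHT library 1 (−1.11, adjusted p = 0.0227). Counts of Mmp13 and Mmp9 were accepted only under the wider of 2 rules for reading back reads.

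Adam22, a receptor-like member without protease activity that binds LGI proteins at synapses, fell after OHT+dox. It had 21.6, 21.6 and 24.9 normalized reads in OHT libraries, 17.6, 19.8 and 24.4 in dox libraries, 9.57, 12.8 and 17.0 in OHT+dox libraries and 28.5, 31.4 and 32.4 in mock libraries. Each treated group lay wholly below mock, and OHT+dox wholly below the other treated groups. The log2 fold change against mock was −1.22 after OHT+dox (SE 0.272, adjusted p = 0.00310), −0.42 after OHT (adjusted p = 0.270) and −0.58 after dox (adjusted p = 0.132).

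Mmp23, a small Mmp that is held in the membrane by its amino-terminal end, had 16.8, 22.4 and 31.2 normalized reads in OHT libraries, 19.1, 19.6 and 22.6 in dox libraries, 14.9, 18.0 and 22.6 in OHT+dox libraries and 26.5, 28.3 and 39.5 in mock libraries. Its fall after OHT+dox passed narrowly (−0.75, SE 0.259, adjusted p = 0.0399). It did not pass under TMM scaling (−0.63, adjusted p = 0.0782), with genes of low counts kept (−0.75, adjusted p = 0.0565), or when any one of mock library 1 (−0.57, adjusted p = 0.173), mock library 3 (−0.81, adjusted p = 0.0537), OHT+dox library 2 (−0.74, adjusted p = 0.0801) or OHT+dox library 3 (−0.61, adjusted p = 0.154) was left out.

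Adam11, like Adam22 a neural member without protease activity, was the one member that rose. It had 28.9, 46.3 and 48.4 normalized reads in OHT libraries, 10.3, 11.7 and 17.9 in dox libraries, 25.0, 30.8 and 37.3 in OHT+dox libraries and 16.8, 22.0 and 29.5 in mock libraries. The highest mock library just exceeded the lowest OHT library. The log2 fold change after OHT was 0.87 against mock (SE 0.266, adjusted p = 0.0398), and OHT+dox exceeded dox by 1.2 (SE 0.287, adjusted p = 0.00710) with no overlap. After dox it was −0.75 against mock (95% interval −1.38 to −0.12, adjusted p = 0.140), and after OHT+dox 0.45 (adjusted p = 0.208). The rise after OHT did not pass without mock library 1 (0.86, adjusted p = 0.119), mock library 3 (0.69, adjusted p = 0.173), OHT library 1 (0.75, adjusted p = 0.130) or OHT library 2 (0.78, adjusted p = 0.0811).

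**Figure D2:**
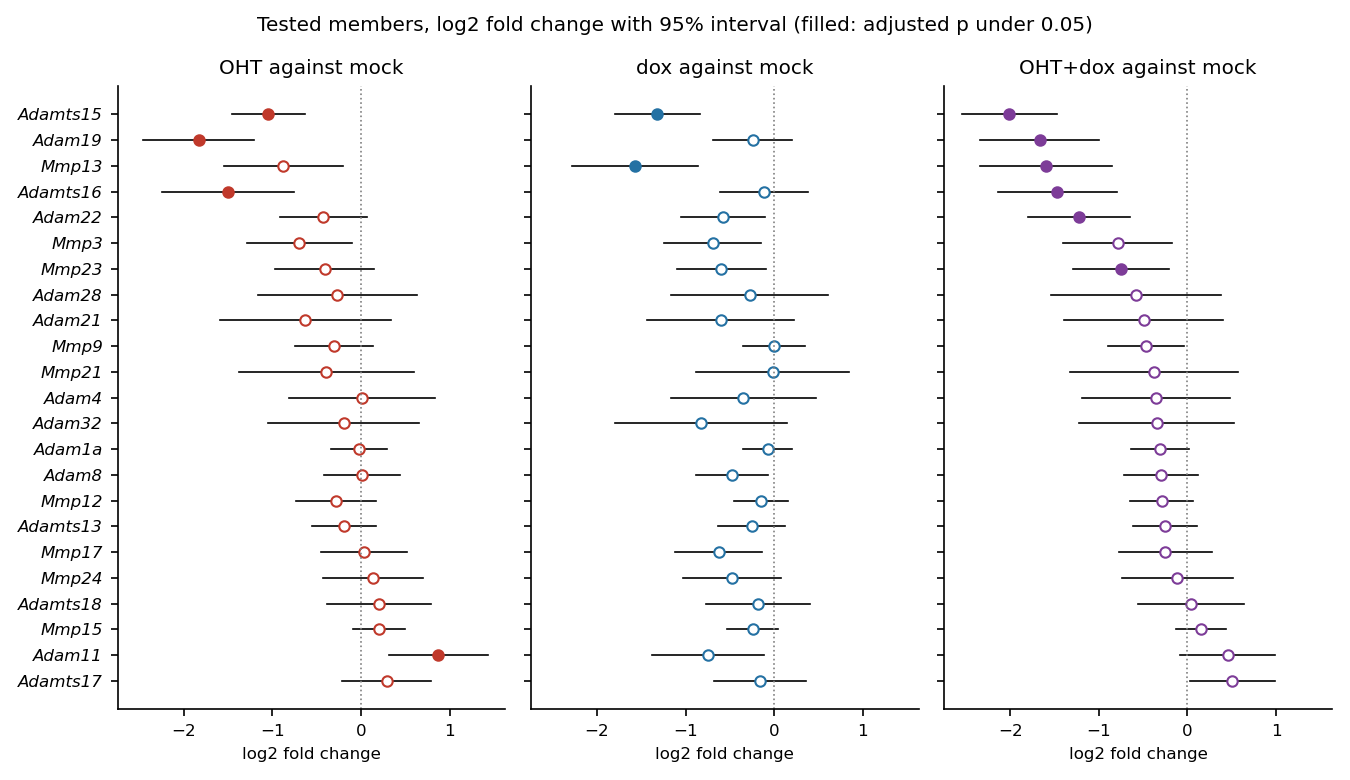
Log2 fold change (horizontal axis, with the 95% interval as a line) of the 23 tested members after OHT, dox and OHT+dox against mock, one panel a comparison. Filled points passed at an adjusted p under 0.05, which are 4 members in OHT, 2 in dox and 6 in OHT+dox, and Adamts15 is the only gene filled in all panels.

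The remaining 16 tested members passed in no comparison with mock. They were Adam1a, Adam4, Adam8, Adam21, Adam28, Adam32, Adamts13, Adamts17, Adamts18, Mmp3, Mmp9, Mmp12, Mmp15, Mmp17, Mmp21 and Mmp24. How often groups of 3 libraries do not overlap was not counted over all genes. Separation of groups without a passed test, here and elsewhere, is therefore given as a description only. Mmp17, a membrane-type Mmp held by a lipid anchor, had 21.7, 22.7 and 23.3 normalized reads in dox libraries, all below the 28.3, 32.1 and 47.1 of mock libraries (−0.63, adjusted p = 0.112). Adam8, a protease of leukocytes, had 27.9, 30.7 and 43.3 in dox against 45.0, 48.1 and 48.2 in mock libraries (−0.48, adjusted p = 0.151). Among the members with the fewest reads, Adam21, Adam28, Adam32, Adam4 and Mmp21 averaged at most 8.64 normalized reads, and values of these 5 after OHT+dox lay between −0.58 and −0.35 on the log2 scale. Their groups overlapped and every 95% interval held 0 (limma adjusted p between 0.390 and 0.593), and the median of all tested genes was −0.13. Mmp15, a membrane-type Mmp, averaged 119 ± 13.4 normalized reads in OHT, 88.0 ± 12.8 in dox, 115 ± 4.13 in OHT+dox and 104 ± 13.4 in mock libraries (SD, n = 3 each). OHT+dox lay above dox in all libraries (0.39, 95% interval 0.10 to 0.68, adjusted p = 0.0685), and this passed narrowly under the stricter rule for reading back reads (0.40, adjusted p = 0.0489). Adamts17 also had all OHT+dox libraries above all dox libraries, with 30, 35.1 and 39.3 normalized reads in OHT+dox against 17.0, 23.5 and 24.8 in dox libraries (0.67, adjusted p = 0.0702), and the call appeared without OHT+dox library 2 (0.77, adjusted p = 0.0492).

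Mmp9, gelatinase B, which leukocytes also secrete, had 68.2, 83.0 and 115 normalized reads in OHT libraries, 94.1, 113 and 115 in dox libraries, 63.9, 74.5 and 96.8 in OHT+dox libraries and 80.7, 99.2 and 151 in mock libraries. The groups overlapped, with log2 values against mock of −0.30 after OHT, 0.00 after dox and −0.47 after OHT+dox (adjusted p = 0.397, 0.995 and 0.105). OHT+dox against mock passed without mock library 3 (−0.65, adjusted p = 0.0267), without OHT+dox library 2 (−0.63, adjusted p = 0.0426) and with genes of low counts kept (−0.47, adjusted p = 0.0217). OHT+dox against dox gave −0.47 (adjusted p = 0.0548), and passed under TMM scaling (−0.48, adjusted p = 0.0443), with genes of low counts kept (−0.47, adjusted p = 0.0289) and without dox library 2 (−0.56, adjusted p = 0.0332) or OHT+dox library 2 (−0.64, adjusted p = 0.0138). The calls of Mmp9 with genes of low counts kept again carry little weight.

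Mmp3, stromelysin-1, had 13.2, 15.5 and 21.4 normalized reads in OHT libraries, 13.8, 17.0 and 19.6 in dox libraries, 10.6, 16 and 21.6 in OHT+dox libraries and 21.0, 28.5 and 33.1 in mock libraries. Its log2 values against mock were −0.70 after OHT (adjusted p = 0.124), −0.70 after dox (adjusted p = 0.113) and −0.79 after OHT+dox (adjusted p = 0.0544). The last of these passed when all 4 groups shared 1 fit (−0.79, adjusted p = 0.0423), without mock library 3 (−0.96, adjusted p = 0.0311) and without OHT+dox library 1 (−1.03, adjusted p = 0.0401), and narrowly under the stricter rule for reading back reads (−0.79, adjusted p = 0.04999). Its neighbour Mmp12, macrophage elastase, had 38.0, 73.0 and 75.8 normalized reads in OHT, 60, 65.7 and 65.9 in dox, 51.1, 54.9 and 67.8 in OHT+dox and 66.0, 68.9 and 77.6 in mock libraries. The log2 values of Mmp12 were −0.28, −0.15 and −0.29, and none passed.

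**Figure D3:**
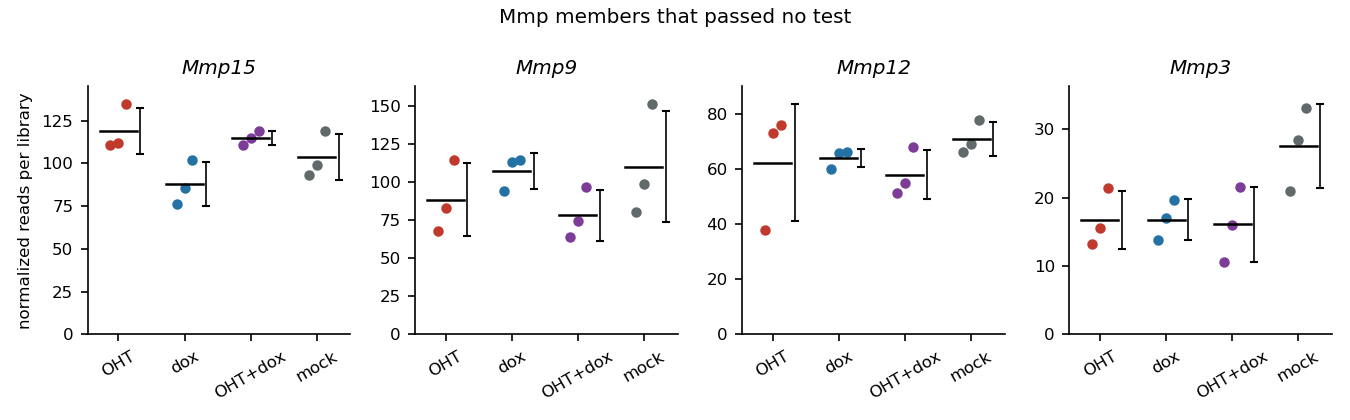
Normalized reads of Mmp15, Mmp9, Mmp12 and Mmp3, which passed in no comparison at the settings used, in the 3 libraries of the OHT, dox, OHT+dox and mock groups (points), with the group mean (line) and SD (bar). In Mmp9 all groups overlap, while all dox libraries lie below the lowest mock library in Mmp3 (21.0 normalized reads) and, narrowly, in Mmp12 (66.0), and all OHT and OHT+dox libraries lie above the highest dox library in Mmp15 (102).

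When dox was added to OHT, 0 of 23 tested members passed in OHT+dox against OHT by limma with voom weights or by limma with a trend, and 3 had an unadjusted p under 0.05 (Adamts15, Adam22 and Mmp13). Over all 3364 genes of this comparison 0.684% rose and 0.327% fell. When OHT was added to dox, 3 members passed, Adam19 and Adamts16, which fell, and Adam11, which rose, against 5.25% and 7.62% of all 3335 genes. Whether the effect of OHT differed with dox was tested as an interaction over all 4 groups. None of 3371 genes passed (108 had an unadjusted p under 0.05), nor did any of 23 members, none of which had an unadjusted p under 0.05. The differences of the members' effects ran from −0.22 (Adam22) to 0.84 (Mmp13, 95% interval −0.31 to 2.00), with half-widths of the 95% intervals between 0.40 and 1.38. These widths are not adjusted for the number of genes. Differences of these sizes, and larger ones, could therefore have been missed.

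The best expressed members, among them most enzymes for which fibroblasts are known, have only the authors' means. Each pools 3 treated libraries with the same 3 mock libraries, so a difference between 2 such means comes almost wholly from the treated groups. Their change against mock could not be had. The mock part is only nearly the same, as each mean has its own size factors. The OHT means were multiplied by 0.979 to reach 1 scale, where equal sums would give 0.986. Since the mock part is not negative, the true ratio of the treated groups is about as far from 1 as the ratio of the means, or farther. The spread between libraries of these genes is unknown and no test was made. The median coefficient of variation within a group was 10.8% over the 524 genes with reads per library and a mean of at least 80. That value is for single libraries of less abundant genes, where counting error weighs more. It does not give the error of the ratios of pooled means below.

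Mmp2 is gelatinase A, and Mmp14 is the membrane enzyme that activates it together with Timp2. The means of Mmp2 with OHT, dox and OHT+dox libraries were 2509, 2534 and 2475 normalized reads on 1 scale, and those of Mmp14 were 1822, 1841 and 1687. Mmp11 (stromelysin-3) had means of 958, 952 and 903, Mmp16 of 680, 575 and 602, and Mmp19 of 482, 519 and 461 in the same order. Mmp16, a membrane-type Mmp, was thus highest with OHT, at 1.18 times the mean with dox. Mmp28 (epilysin) had 205, 239 and 184, and its OHT+dox mean was 0.771 times the dox mean.

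Of the sheddases, Adam9 had means of 1617, 1754 and 1698 with OHT, dox and OHT+dox libraries, Adam10 of 1514, 1602 and 1534, and Adam17, which releases TNF and ligands of the EGF receptor, of 809, 829 and 782. Adam15 had 1098, 956 and 1053, and Adam12 (meltrin alpha) 575, 691 and 567. Adam12 was the one of these 5 outside the middle 90% of all 9454 genes with means only, at 0.821 times the dox mean with OHT+dox and 0.832 times with OHT.

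The widest ratio between treated groups was that of Adamts5. Adamts5, the main aggrecanase of mouse cartilage, had means of 1942, 2867 and 2495 normalized reads with OHT, dox and OHT+dox libraries. The OHT mean was 0.677 times the dox mean, so that dox libraries were at least about 1.48-fold above OHT libraries (OHT minus dox −1852 normalized reads on average). OHT+dox libraries stood 1108 normalized reads above OHT (ratio of means 1.29) while OHT+dox minus dox was −744 (ratio of means 0.870). Adamts1, which cuts versican, had 1743, 2183 and 2241, so that OHT was lowest here too, at 0.798 times the dox mean, and the OHT+dox mean was 1.29 times that with OHT. Only 0.645% of the 9454 genes had a ratio of OHT+dox to OHT as high as Adamts1, and 0.656% one as high as Adamts5. Adamts4, the other well-known aggrecanase, was highest with dox, with 433, 532 and 399, and its OHT+dox mean was 0.749 times the dox mean. Of all such genes 0.243% had a ratio as low.

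Adamts7, which cuts the cartilage protein COMP, was lowest with OHT+dox (293, 313 and 247), at 0.840 times the OHT mean and 0.789 times the dox mean. The procollagen-trimming enzymes did not go together. Adamts2 had 431, 499 and 416, and Adamts14 had 188, 175 and 208. Adamts9 had 1075, 1229 and 1196, Adamts10 986, 985 and 917, Adamts6 850, 807 and 772 and Adamts12 653, 685 and 643 normalized reads.

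The inhibitors Timp2 and Timp3 had means of 4048, 4219 and 4088 and of 2352, 2517 and 2423 normalized reads with OHT, dox and OHT+dox libraries. Timp1, an inducible inhibitor, had 402, 475 and 420, with the OHT mean at 0.846 times the dox mean. Timp4 was close to absent, with 9 reads over all 12 libraries. No Timp gene could be tested against mock.

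Over the 24 members with means only, the median ratio was 0.976 for OHT+dox over OHT, 0.945 for OHT+dox over dox and 0.942 for OHT over dox, beside 1.01, 1.0 and 1.0 for all 9454 genes. The OHT mean was below the dox mean in 18 of 24 members, beside 48.3% of all genes. The OHT+dox mean was below the dox mean in 20 of 24, beside 49.8%. Below the 5th percentile of all genes lay 3 members in OHT+dox over OHT, 5 in OHT+dox over dox and 7 in OHT over dox, and above the 95th percentile 2, 0 and 1. These ratios share libraries with each other and are given as a description.

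**Figure D4:**
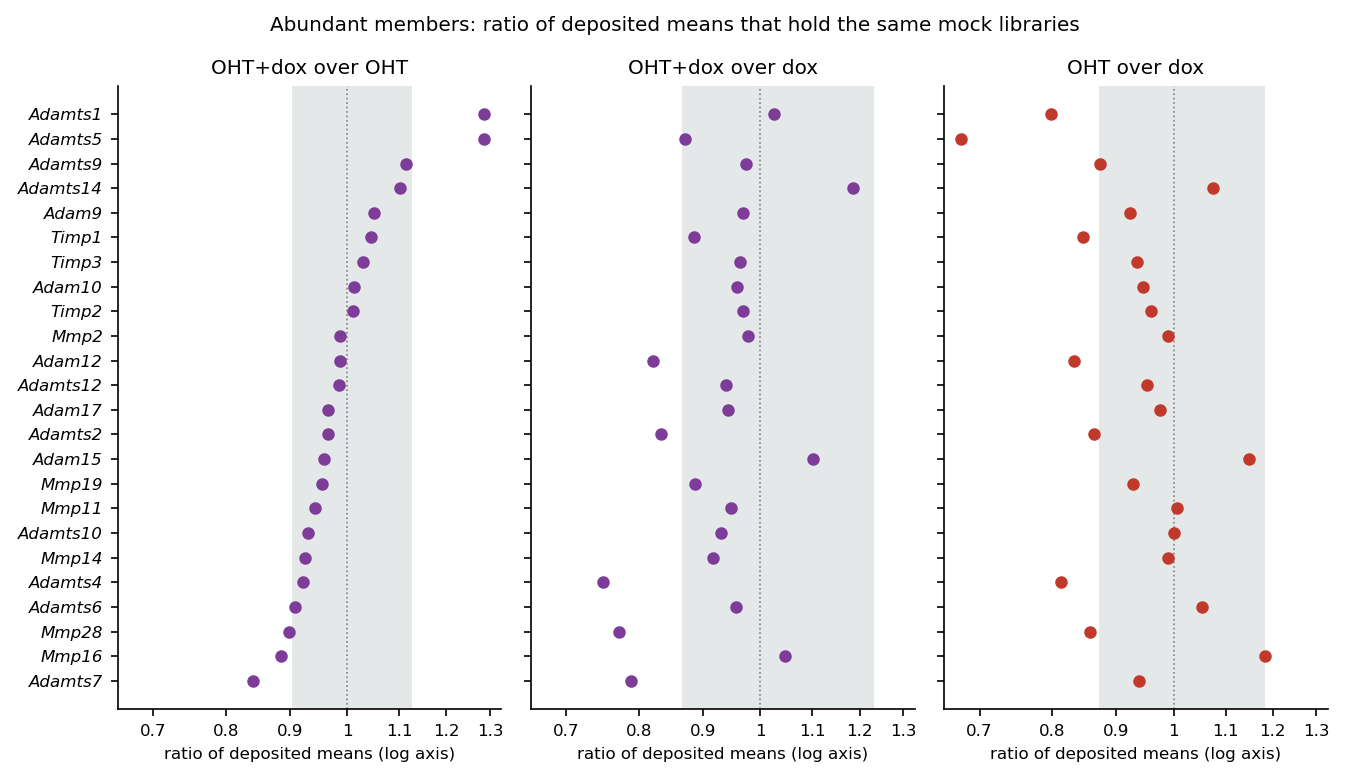
Ratio of the authors' means (log axis) for the 24 abundant members, in OHT+dox over OHT, OHT+dox over dox and OHT over dox, with the range of the middle 90% of all 9454 such genes in grey. Adamts1 and Adamts5 stand right of the grey band in OHT+dox over OHT, and Adamts5 is farthest left in OHT over dox at 0.677.

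Of the 32 untested members with reads per library, 10 had no read, 10 had 1 read over the 12 libraries, 8 had 2 to 10 and 4 had more, with 30 reads at most (Adamts8, followed by Adam33 and Adam5 with 23 each). The 10 without a read were Adam24, Adam26a, Adam26b, Adam34, Adam3, Adam6a, Adam6b, Mmp7, Mmp20 and Mmp1b, of which Mmp7 (matrilysin) belongs to epithelia and Mmp20 (enamelysin) to developing teeth. Mmp8 (neutrophil collagenase) had 3 reads, Mmp10 2 and Mmp1a 1. Adam30 had 3 reads in the OHT libraries together, 0 in dox, 7 in OHT+dox and 5 in mock, which is below the filter of the test. In OHT+dox against dox it passed when the filter was dropped (2.49, adjusted p = 0.00366), but 7 reads against 0 cannot carry so small an adjusted p. The Adam6 and Adam26 pairs are close copies, and a read that fits both may not have been counted for either. The library kit did not keep the strand, so reads of a gene on the opposite strand that overlaps a member cannot be told apart from its own.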

How the data were processed

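RNA-seq was done on total RNA, with the poly(A) selection step of the kit skipped. The submitters' notes on processing name TopHat2 2.0.8 and mm9 for alignment, SAMtools, featureCounts 1.4.5-p1 for counting and DESeq2, run by the authors on pairs of groups. The sources used here do not state the annotation. The deposited table gives, for each treated group against mock, the mean of normalized counts over 6 libraries, and a fold change, an adjusted p-value and a call, which were not used. No column of values per sample was left unmapped (0).

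A deposited mean is a sum of whole reads times 1 step per library. The 6 smallest values of each column gave the steps, the 3 that recur together in all columns (64 genes or more, the next triple 3) being mock, the group the columns share. Whole reads that give all 3 means to their last digit were then searched for. Where several sets of reads fitted, the set nearest to even reads within and between groups was taken. It was accepted only if the next set lay clearly farther off. Accepted sets were found for 12217 genes: for all genes with means from 1 to 50, 99.17% from 50 to 100 and 86.51% from 100 to 120. Of means moved by a small amount, which no reads should give, 0 up to a mean of 100 and 1.19% above it were accepted. Labels do not tie these libraries to samples, so they are numbered within a group from the largest size factor. The rule for accepting a solution was widened after a stricter one had left out 2 members, Mmp9 and Mmp13. Of the 12116 genes recovered under both, 0 had other counts. This does not check the 101 genes read back only under the wider rule, Mmp9 and Mmp13 among them. The limit of 120 was lowered slightly after results were seen, for a reason of presentation, and the main calls of members were the same before, while Mmp13 after OHT had then also passed under TMM scaling.

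Genes with a mean of at least 5 were tested with limma 3.58.1 (R 4.3.3, voom weights, 2 groups a fit, the authors' size factors) in place of the count test planned first. Comparisons of treated groups used 1 scale set through mock. P-values were two-sided and adjusted over all genes tested (Benjamini-Hochberg), with a threshold of 0.05. The labels do not say whether libraries came from separate cultures, so p-values measure the spread between libraries, which may be technical. Counting error and 3 libraries a group set the precision. The scripts were tested on simulated data.

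The members, motifs and lists were chosen with earlier results of these data known. The rule for naming covered every member, in full those with the highest deposited mean of each family (up to 5) and the others by range and count. Members past a test, and others singled out, were added after values were seen. Alternatives were TMM scaling, no filter, each library left out, 1 fit of all groups, a limma trend on log2(value + 1), means under 100 only, the stricter rule and other scales between comparisons.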

Additional observations from a re-analysis of the deposited data

How the results depend on the processing

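The counts of members past the test were 4 (OHT), 2 (dox) and 6 (OHT+dox) against mock, 0 in OHT+dox against OHT and 3 in OHT+dox against dox. With 1 library left out they ranged from 2 to 4, 1 to 2, 5 to 7, 0 to 2 and 3 to 5. The stricter recovery rule, which drops Mmp13, left 1 member in dox against mock. Without the filter on low counts 5 members passed in OHT against mock (Mmp13 added), 1 (Adamts15) in OHT+dox against OHT and 5 in OHT+dox against dox (Adam30 and Mmp9 added). That setting lets genes near 0 into the fit, and limma p-values of several members fell greatly at nearly the same log2 value. For Mmp13 after dox the adjusted p was 9.36e-11 in place of 0.00941, while that of Mmp23 after OHT+dox rose from 0.0399 to 0.0565. Members gained only there are therefore not counted as passing. Over all genes, 386, 227, 893, 34 and 429 passed in the comparisons in the order given first, and 208 to 398, 54 to 161, 628 to 872, 3 to 96 and 241 to 430 with 1 library left out. When all groups shared 1 fit 116 genes passed in dox against mock, and without the filter 72 in OHT+dox against OHT. No called member changed sign under any alternative run. Adam19, Adamts15 and Adam22 kept every call, as did Adamts16 after OHT+dox, Mmp13 after OHT+dox (where recovered) and all calls of OHT+dox against dox. Setting the scale between comparisons by equal sums or by the median ratio of the deposited means changed no call of a member. No paired analysis was possible because the libraries read back from the means carry no replicate numbers. The filter and the limit for reading back reads confine the tested members to genes between 5 and 120 normalized reads on average, and the abundant members have no error and no comparison with mock.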
